A study of Schizosaccharomyces pombe with 8 samples.

Results

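The genes described here lie on 9 cosmids, the cloned stretches of DNA from which the fission yeast genome was assembled, that stand near the 2 ends of chromosome II of Schizosaccharomyces pombe. They were chosen by the cosmid part of their systematic names, with 11 genes of the same cosmids left out by the choosing rule, and the rule names no measured value. The rule kept 55 of the 4940 genes on the arrays. By gene order in the RefSeq table, 30 of them lie on 6 cosmids of the left end (SPBC1348, SPBPB8B6, SPBPB21E7, SPBPB10D8, SPBC359 and SPBC1683), between 2 and 51 protein-coding genes from the chromosome end. The other 25 lie on 3 cosmids of the right end (SPBCPT2R1, SPBPB2B2 and SPBC1289), between 1 and 46 genes from it. The innermost cosmids reach well beyond the telomere, so "near the end" holds for the set and not equally for each gene.

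Transcript signals came from 1-colour arrays of 4 strains with 2 arrays per strain, each from its own culture, 1 on slide 1 and 1 on slide 2. The strains were YMP37, labelled Δpka1 (pka1::ura4), YMP41, labelled Δcgs1 (cgs1::ura4), OG1, labelled Δppt1 (ppt1::kanMX6), and the wild type PR110. All share mating type h+ and the markers leu1-32 and ura4-D18, and all grew in YES, a rich medium, in 50 mL cultures at 30 °C for 8 h, into logarithmic phase. Each disruptant is 1 strain, and further independent disruptants were not analysed here. The product of pka1 is the catalytic subunit of protein kinase A (PKA), which cAMP activates, that of cgs1 is the regulatory subunit that keeps it inactive when cAMP is low, and that of ppt1, by its probes, is the prenyltransferase of coenzyme Q synthesis.

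The ends of fission yeast chromosomes carry heterochromatin, a compact chromatin in which histone H3 is methylated and the protein Swi6 is bound, and which spreads inward from the telomere and dampens transcription of the genes it covers. Gene families with near-identical copies, such as the RecQ-type helicase genes of the tlh family, lie next to the telomeres. Farther in stand genes that cells use under particular conditions, among them sugar, amino acid and metal transporters and enzymes of minor metabolic routes. PKA signals the presence of glucose and holds back genes of mating, stress and the use of other carbon sources.

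The targeted genes were read first on every array, slide 1 before slide 2 here and below. Signal for pka1 read 38387 and 46832 on the arrays labelled Δpka1, 28563 and 34673 in Δcgs1, 28350 and 30386 in Δppt1, with 28743 and 34715 in wild type. It did not show the disruption, so these are called "the arrays labelled Δpka1" throughout, and every direction drawn from them rests on that label. Signals of cgs1 (1404 and 1360 in Δcgs1, wild type 20232 and 28238) and of ppt1 (2497 and 1910 in Δppt1, wild type 32691 and 41517) were low where their labels say, and ura4 was high only in the strains disrupted with it. Against wild type, carrying ura4 cannot be told apart from the disruption in Δcgs1 and on the arrays labelled Δpka1, while these strains share ura4 when set against each other. On slide 2, titles and deposited tables give different array positions for the 3 disruptants, and the strain named in the labels was used. Array medians were 21210 to 22148 on slide 1 and 24677 to 25548 on slide 2. The highest signal of a deleted gene, 2497, was taken as the background limit, and the top of the scale was 65239. Of the 55 genes, 40 lay above that limit on all 8 arrays, 15 lay at or below it on at least 1 array (27.3%, against 4.37% of all genes) and 3 of those did so on all 8. Only spi1 lay within 10% of the top on all arrays, where folds are compressed, and 3 genes, spi1 among them, did so on at least 1. P-cell marker genes, which h+ cells express, had a summed signal of 100611 to 111021 on the arrays labelled Δpka1 and 71890 to 77645 in wild type over the 3 of 5 that were measured, and 4 of 6 M-cell markers summed to 19265 to 26294 over all arrays.

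On the arrays labelled Δpka1, 19 of the 55 genes differed from wild type, where all genes of the arrays gave 8.46%. Of these, 15 fell and 4 rose, where 4.13% of all genes fell and 4.33% rose. The falls included nrg1, a gene of the amino acid permease family, aes1, named as an enhancer of RNA-mediated gene silencing, the membrane protein gene ftm5 and the helicase gene tlh2. The rises were those of SPBC1289.14, cmt2 (a catechol O-methyltransferase gene by its name), SPBPB10D8.02c and cao2 (a copper amine oxidase gene). Calls are limma adjusted p-values below 0.05, with Benjamini-Hochberg adjustment over all 4940 genes, and all log2 fold changes below come from 2 arrays per strain. The median log2 fold change of the 55 genes was -0.22, beside -0.04 over all genes. By these calls, the excess of falls rests on the choice of genes. Of the 11 genes left out, 9 rose and 0 fell, and with them restored 13 of 66 genes rose and 15 fell. Each of the 19 calls pointed the same way on slide 1 and on slide 2. The arrays of both strains did not overlap in any of them, which the choice of called genes favours. Over the 55 genes, called or not, the arrays did not overlap in 33, beside 41.1% of all genes. In an array of total RNA, less transcript per cell cannot be told apart from fewer cells that carry it.

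In Δppt1, 7 of the 55 genes differed from wild type, beside 1.01% of all genes, and 6 of them rose (0.688% of all genes) while 1 fell (0.324%). The rises were those of alr2, an alanine racemase gene, SPBPB2B2.08, SPBPB10D8.02c, SPBPB2B2.05, nrg1 and abc3, a gene for an ABC transporter of the vacuole. The gene that fell was ftm5. The arrays of the 2 strains did not overlap in any of the 7, which the choice of called genes favours. Over the 55 genes, called or not, the arrays did not overlap in 31, beside 24.6% of all genes. The median was -0.01, beside -0.02 over all genes. In Δcgs1, 1 of the 55 genes differed from wild type, SPBPB2B2.18, which rose, beside 0.142% of all genes called and 0.081% called higher, and the median was 0.07 beside 0.02. Leaving out any 1 of the 4 arrays ended that call (adjusted p from 0.112 to 0.161). Its log2 fold change stayed between 2.11 and 2.42 in those fits. The 3 comparisons share the wild-type arrays.

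The slides differed in overall brightness, and a fit with slide as a block, in which the spread between slides is taken out, called more genes. It gave 31 of the 55 genes for the arrays labelled Δpka1 (5 higher and 26 lower, beside 38.6% of all genes, 14.7% higher and 24.0% lower), 2 for Δcgs1 (beside 0.83%) and 21 for Δppt1 (10 higher and 11 lower, beside 12.9%, 5.53% higher and 7.35% lower), and kept each of the calls above. The genes that it added on the arrays labelled Δpka1 were mal1, higher, and SPBC1348.01, SPBC1348.06c, SPBPB8B6.05c, SPBPB21E7.05, SPBC1683.02, SPBC1683.12, amf1, vma10, uap1, spf38 and SPBPB2B2.08, lower. In Δppt1 it added SPBPB10D8.01, SPBC1683.02, SPBC1683.04 and SPBC1683.12, higher, and SPBC1348.06c, grt1, fah1, SPBPB21E7.05, pcl1, rpc40, gmh6, cao2, SPBPB2B2.06c and SPBPB2B2.18, lower. In Δcgs1 it added SPBPB10D8.02c, higher. With the 11 left-out genes restored, the block fit gave 14 of 66 genes higher and 26 lower on the arrays labelled Δpka1. Over all genes, 14.7% were higher and 24.0% lower. For SPBPB2B2.08 on the arrays labelled Δpka1, and SPBC1348.06c there and in Δppt1, both strains compared lay at background. These lower calls give no fold. With 1 array left out at a time, 9 of the 19 calls on the arrays labelled Δpka1 held in all 4 fits: SPBC1289.14, SPBPB10D8.01, SPBPB2B2.05, SPBPB2B2.06c, aes1, cmt2, ftm5, nrg1 and tlh2. The number of calls was 12 without replicate 1 of those arrays, 9 without their replicate 2, 11 without replicate 2 of wild type and 19 without its replicate 1. In Δppt1, SPBPB10D8.02c, SPBPB2B2.08 and alr2 held in all 4 such fits, and 3 or 4 genes were called in each.

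**Figure D1:**
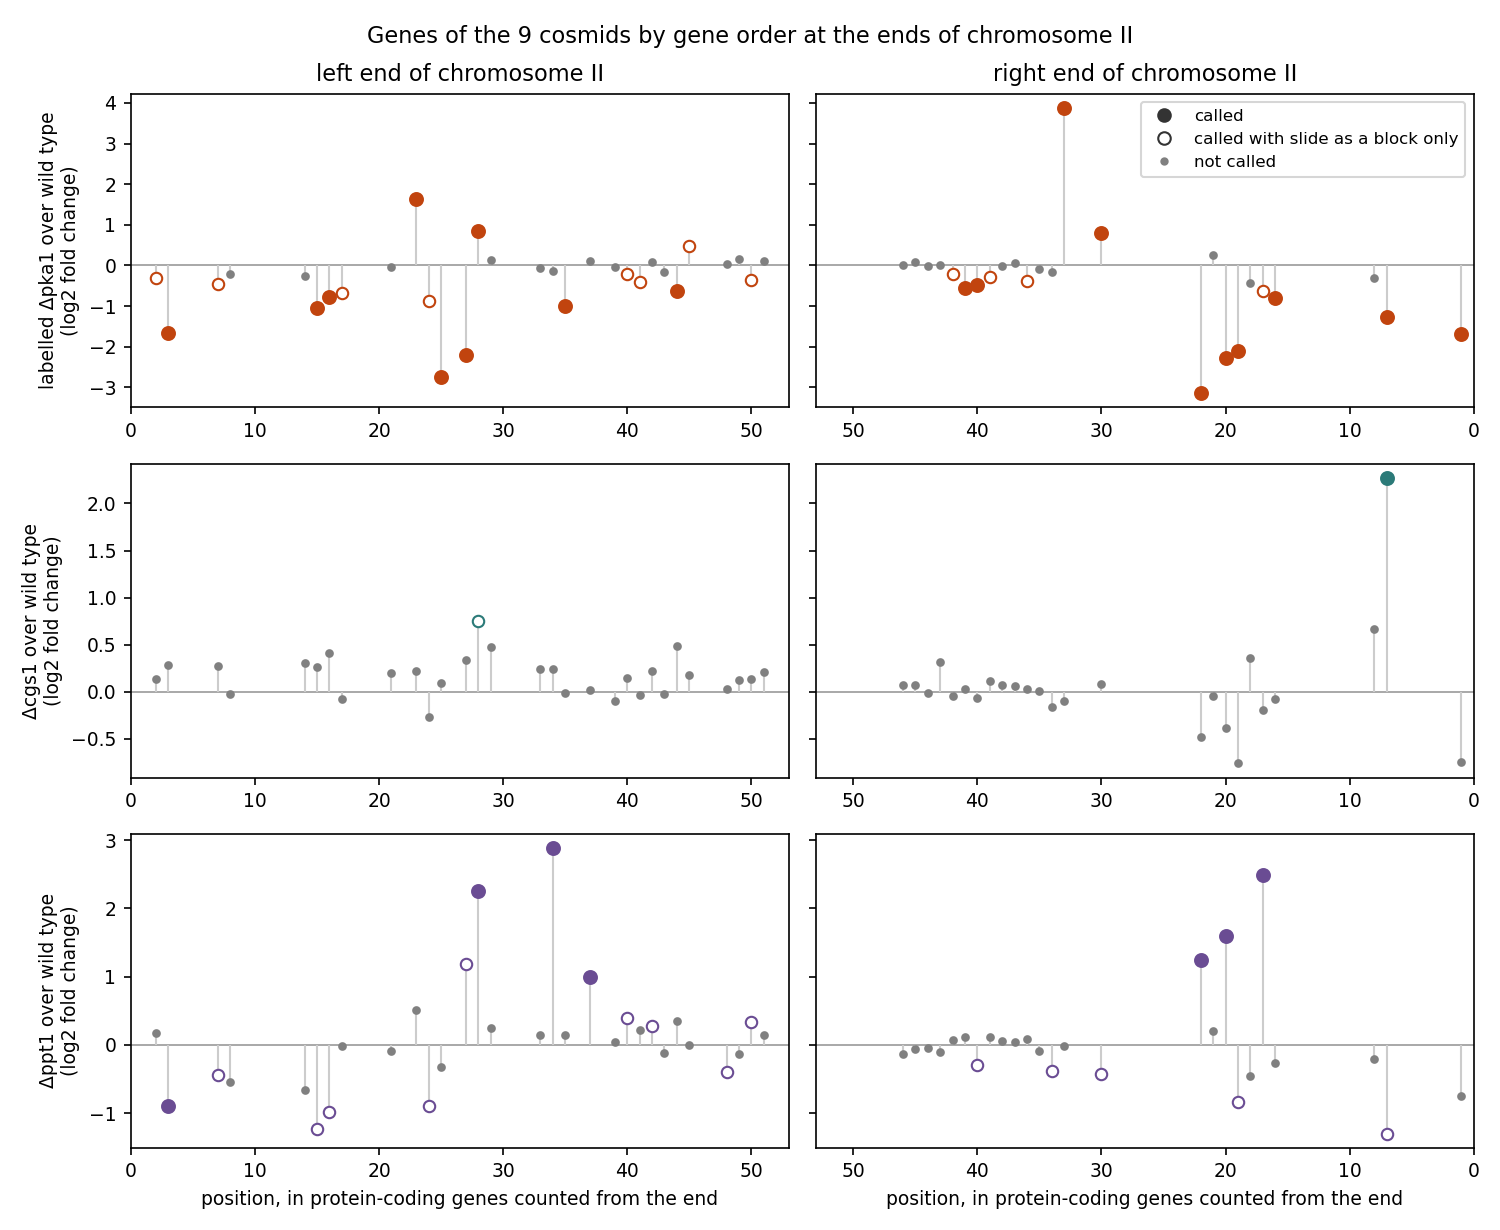
Log2 fold change over wild type of each of the 55 genes (y axis) against its place in gene order, counted in protein-coding genes from the chromosome end (x axis), for the left end and the right end in separate columns. Rows are the arrays labelled Δpka1, Δcgs1 and Δppt1, filled points are called genes, open points are called only with slide as a block and small grey points are not called, and each row has its own scale. The points reach from -3.14 to 3.88 in the top row, and those of Δcgs1 lie between -0.76 and 0.75 apart from SPBPB2B2.18 at 2.27.

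On the right end, cosmid SPBPB2B2 held nrg1, the gene of the 55 with the widest range of strain means (4.39 on the log2 scale), 22 genes from the end. Signal for nrg1 was 1975 and 1611 on the arrays labelled Δpka1, 11088 and 11463 in Δcgs1, 34830 and 40209 in Δppt1, with 14540 and 16982 in wild type. The strains stood at 3 levels without overlap: background on the arrays labelled Δpka1, an intermediate level in Δcgs1 and wild type, and a high level in Δppt1. The gene was at least 6.29-fold lower than wild type on the arrays labelled Δpka1 (log2 fold change -3.14, SE 0.14, adjusted p = 4.29e-05) and higher in Δppt1 (1.25, SE 0.14, adjusted p = 0.0137). Of the 4 fits with 1 array left out, 3 lost the call in Δppt1 (adjusted p from 0.0366 to 0.113, log2 fold change from 1.14 to 1.36), and none lost the other. Set directly against Δppt1, the arrays labelled Δpka1 were at least 15-fold lower (-4.39, SE 0.14).

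The gene SPBPB2B2.05, with no symbol in the table used, lies a gene away from nrg1 on the telomere side, with say1 between them. Its signal was 1536 and 967 on the arrays labelled Δpka1, 4298 and 4696 in Δcgs1, 17012 and 18425 in Δppt1, with 5116 and 6740 in wild type. As with nrg1, the arrays labelled Δpka1 were lowest and at background, Δppt1 was highest, and no array of either overlapped one of wild type. It was at least 2.35-fold lower than wild type on the arrays labelled Δpka1 (-2.27, SE 0.23, adjusted p = 0.00173) and 3.02-fold higher in Δppt1 (1.59, SE 0.23, adjusted p = 0.0357). All 4 fits with 1 array left out lost the call in Δppt1 (adjusted p from 0.0711 to 0.215, log2 fold change from 1.39 to 1.79). The direct difference between the arrays labelled Δpka1 and Δppt1 was at least 7.09-fold (-3.86, SE 0.23). In the fit without the block, nrg1 and SPBPB2B2.05 were the genes of the 55 called lower on the arrays labelled Δpka1 and higher in Δppt1. With slide as a block 6 genes were, SPBPB10D8.01, SPBPB2B2.08, SPBC1683.02 and SPBC1683.12 with them. SPBPB2B2.08 lay at background both on the arrays labelled Δpka1 and in wild type, so its lower call gives no fold. The gene between nrg1 and SPBPB2B2.05, say1, a sterol deacetylase gene, was called in no comparison, and its signals lay between 2525 and 3400 on all arrays.

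The next genes toward the telomere did not share one pattern. SPBPB2B2.06c read 1581 and 1066 on the arrays labelled Δpka1, 3484 and 3119 in Δcgs1, 3238 and 3004 in Δppt1, with 5303 and 5902 in wild type. It was highest in wild type and at least 2.24-fold lower on the arrays labelled Δpka1 (-2.11, SE 0.19, adjusted p = 0.000939). With SPBPB2B2.05 it makes up the pair of adjacent genes of this cosmid that fell together. SPBPB2B2.07c, read by fewer probes than the other genes, had signals from 1945 to 4856 and no call. SPBPB2B2.08 read 1472 and 1142 on the arrays labelled Δpka1, 1814 and 1717 in Δcgs1, 10868 and 11656 in Δppt1, with 1806 and 2231 in wild type. Every array but those of Δppt1 lay at background, and Δppt1 was at least 4.51-fold higher than wild type (2.49, SE 0.16, adjusted p = 0.00074). The last gene of this stretch, pan5, which encodes a reductase of pantothenate synthesis, averaged 10558 ± 1117 on the arrays labelled Δpka1 and 18592 ± 3686 in wild type (SD, n = 2 each), a fall of 0.81 on the log2 scale (SE 0.17, adjusted p = 0.0365). That call was lost in 3 of 4 fits with 1 array left out, and in the fit with dim signals raised to the background limit (adjusted p = 0.0601), where its log2 fold change was the same -0.81.

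SPBPB2B2.18, 7 genes from the right end, was the gene called in Δcgs1. Its signal was 1779 and 1539 on the arrays labelled Δpka1, 18303 and 20104 in Δcgs1, 1984 and 1327 in Δppt1, with 3573 and 4438 in wild type. Δcgs1 stood far above all other strains, wild type was above background, and the other 4 arrays were at background. It was 4.82-fold higher in Δcgs1 than in wild type (2.27, SE 0.21, adjusted p = 0.0215) and at least 1.59-fold lower on the arrays labelled Δpka1 (-1.27, SE 0.21, adjusted p = 0.0137). The value in Δppt1 over wild type was -1.30 (adjusted p = 0.0501, or 0.0248 with the slide block). Between the arrays labelled Δpka1 and Δcgs1, both of which carry ura4, it was at least 7.68-fold lower (-3.54, SE 0.21, adjusted p = 0.00015), a call kept with any 1 array left out. Of the 55 genes, it was the 1 called in opposite directions on the arrays labelled Δpka1 and in Δcgs1, in the fits without and with the block. With 1 array left out, the first of these calls was lost in 3 of 4 fits and the second in all 4. The log2 fold changes over wild type then ran from -1.42 to -1.11 and from 2.11 to 2.42.

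**Figure D2:**
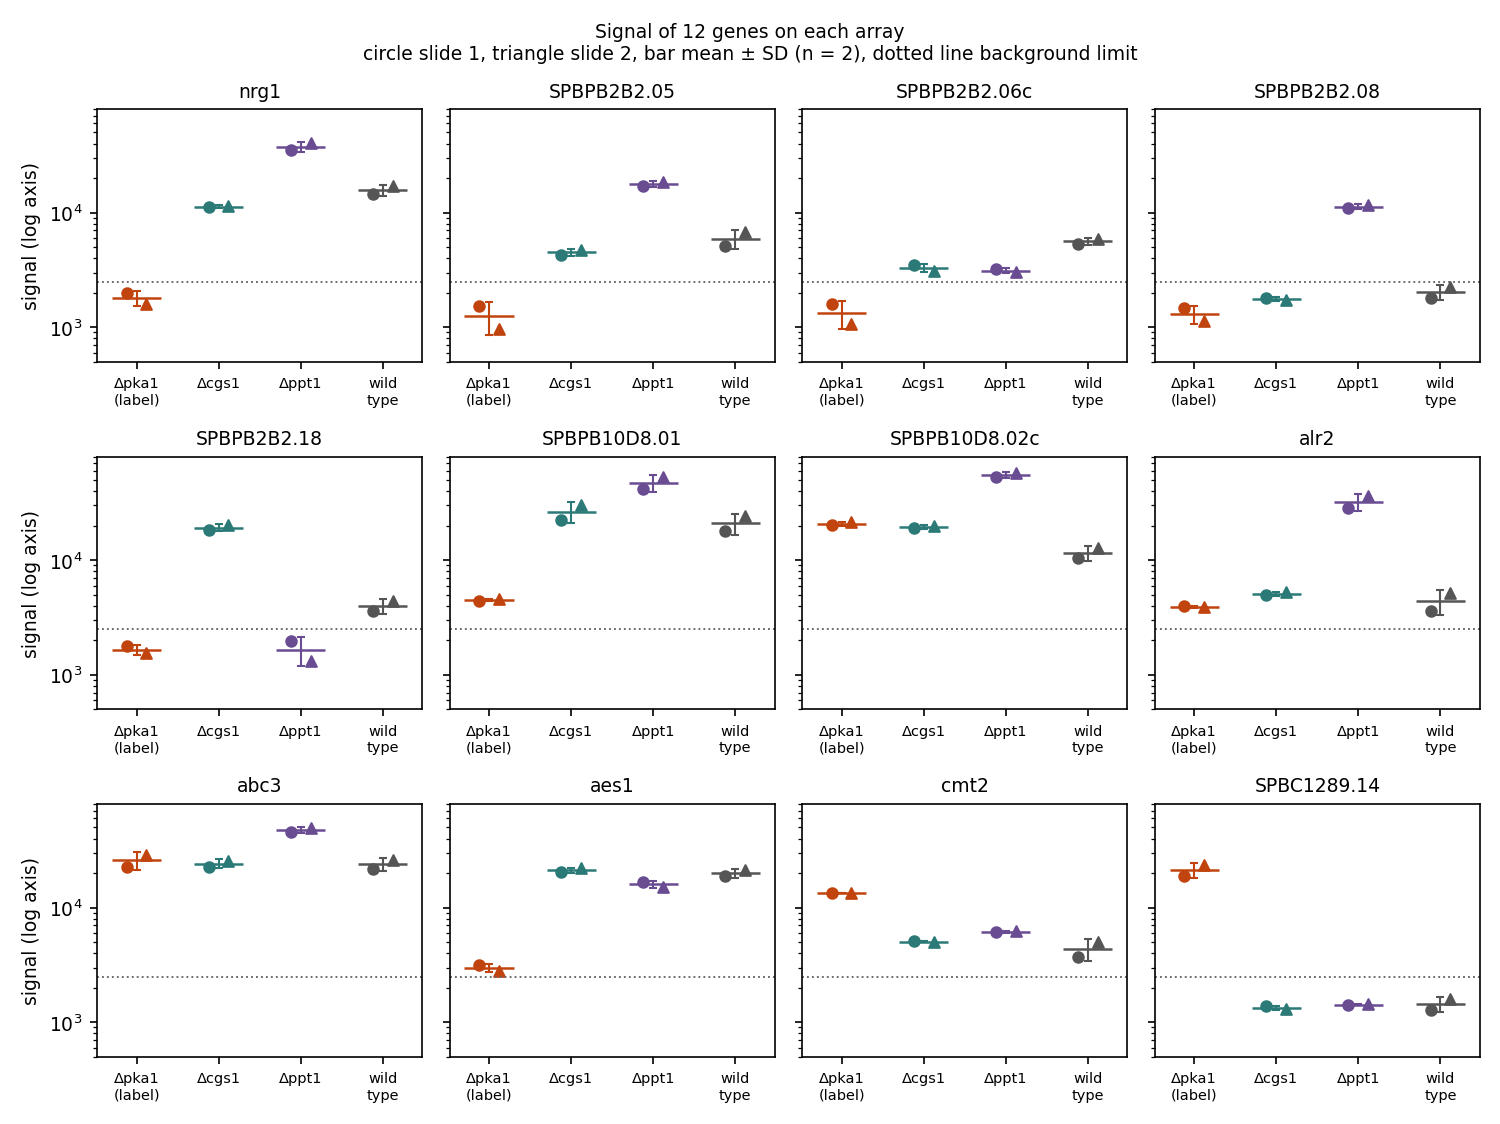
Signal of 12 genes on every array (y axis, linear intensity on a log axis), with the arrays labelled Δpka1, Δcgs1, Δppt1 and wild type from left to right. Circles are slide 1, triangles slide 2, bars the mean ± SD of 2 arrays and the dotted line the background limit of 2497. For nrg1 the arrays labelled Δpka1 read 1975 and 1611 and those of Δppt1 34830 and 40209, for SPBPB2B2.18 only Δcgs1 is high, and for SPBC1289.14 only the arrays labelled Δpka1 are high, at 18940 and 23473.

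At the inner part of the right end, cosmid SPBC1289 carried the largest rise of the set amid genes that differed little. SPBC1289.14 read 18940 and 23473 on the arrays labelled Δpka1, 1377 and 1298 in Δcgs1, 1406 and 1435 in Δppt1, with 1282 and 1598 in wild type. It was at background in 3 strains and well above it in the other, at least 8.44-fold higher than wild type (3.88, SE 0.15, adjusted p = 3.53e-05) and than Δcgs1 (3.98, SE 0.15, adjusted p = 2.69e-05). Near it, cao2 averaged 42166 ± 2818 on the arrays labelled Δpka1, 25669 ± 2320 in Δcgs1, 18122 ± 172 in Δppt1 and 24260 ± 1634 in wild type (SD, n = 2 each). It rose by 0.80 over wild type (SE 0.11, adjusted p = 0.00598). In Δppt1 its value was -0.42 (adjusted p = 0.202, or 0.0107 with the slide block).

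The other 13 genes of SPBC1289 mostly serve functions that growing cells need. Of these, ppr8, a gene of mitochondrial RNA metabolism, and rpc40, a subunit shared by RNA polymerases I and III, fell on the arrays labelled Δpka1 (-0.56 with SE 0.13 and adjusted p = 0.0459, and -0.48 with SE 0.10 and adjusted p = 0.0338), and they are neighbours. Both falls were small and were lost in 3 of 4 fits with 1 array left out. The Ran GTPase gene spi1 read 59098 to 64388 on all arrays. The splicing genes uap2, spf38 and usp109, the vacuolar ATPase gene vma10, the mitochondrial import gene tim21, the polarity gene pob1, the transcription factor gene adn2 and the genes uap1, gmh6 and chr4 were not called in any strain. Their log2 fold changes lay between -0.38 and 0.32, and with slide as a block vma10, uap1 and spf38 were called lower on the arrays labelled Δpka1 and gmh6 lower in Δppt1.

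On the left end, the cosmid SPBPB10D8 held a pair of adjacent genes that moved apart. SPBPB10D8.01 read 4437 and 4587 on the arrays labelled Δpka1, 22553 and 30475 in Δcgs1, 41499 and 52961 in Δppt1, with 17751 and 24123 in wild type. It was 4.59-fold lower than wild type on the arrays labelled Δpka1 (-2.20, SE 0.21, adjusted p = 0.00128). In Δppt1 it was 1.18 above wild type on the log2 scale, with no call (adjusted p = 0.0716, or 0.00479 with the slide block). Its neighbour SPBPB10D8.02c read 20036 and 21387 on the arrays labelled Δpka1, 18955 and 19912 in Δcgs1, 52588 and 57960 in Δppt1, with 10395 and 12777 in wild type. Wild type was the lowest strain, and Δppt1 stood highest without overlap, 4.79-fold above wild type (2.26, SE 0.12, adjusted p = 0.000571). SPBPB10D8.02c also rose on the arrays labelled Δpka1 (0.84, SE 0.12, adjusted p = 0.00862). In Δcgs1 its value was 0.75 (adjusted p = 0.163, or 0.0164 with the slide block). It was the 1 gene of the 55 called higher both on the arrays labelled Δpka1 and in Δppt1. The third gene, SPBPB10D8.04c, was not called against wild type and read 36128 to 57602.

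On SPBC359, alr2, 34 genes from the end, read 3959 and 3873 on the arrays labelled Δpka1, 4954 and 5226 in Δcgs1, 28262 and 35902 in Δppt1, with 3625 and 5138 in wild type. Only Δppt1 was high, 7.38-fold above wild type (2.88, SE 0.19, adjusted p = 0.000803), while the arrays labelled Δpka1 differed from wild type by -0.14 with no call. The vacuolar transporter gene abc3 read 22633 and 29018 on the arrays labelled Δpka1, 22694 and 25678 in Δcgs1, 45798 and 49257 in Δppt1, with 21832 and 26001 in wild type. Its rise in Δppt1 was called (1.00, SE 0.15, adjusted p = 0.0457), a call that each fit with 1 array left out lost. The amino acid permease gene aat1, between them, showed the other pattern. It averaged 22847 ± 607 on the arrays labelled Δpka1, 45164 ± 4609 in Δcgs1, 50753 ± 8715 in Δppt1 and 45554 ± 6990 in wild type (SD, n = 2 each), and fell on the arrays labelled Δpka1 (-0.99, SE 0.16, adjusted p = 0.0137). That call was lost in 3 of 4 fits with 1 array left out, with log2 fold changes from -1.14 to -0.83. SPBC359.01 was not called and read 24247 to 35356. SPBC359 and SPBPB10D8 together held 3 of the 6 rises of Δppt1.

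On SPBPB21E7, aes1 read 3136 and 2806 on the arrays labelled Δpka1, 20523 and 22012 in Δcgs1, 16718 and 15197 in Δppt1, with 18662 and 21248 in wild type. Only the arrays labelled Δpka1 were low, above background and 6.71-fold under wild type (-2.75, SE 0.11, adjusted p = 3.91e-05). Close by, cmt2 read 13321 and 13445 on the arrays labelled Δpka1, 5064 and 4997 in Δcgs1, 6063 and 6256 in Δppt1, with 3710 and 5042 in wild type. It went the other way, 3.09-fold above wild type on the arrays labelled Δpka1 (1.63, SE 0.14, adjusted p = 0.000939). SPBPB21E7.05 stands between these genes and lay at background on the arrays labelled Δpka1. There it was at least 1.12-fold lower than wild type and was not called (-0.87, adjusted p = 0.0726, or 0.0228 with the slide block). SPBPB21E7.10 differed by at most 0.20 from wild type in any strain and was not called.

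On SPBPB8B6, the transcription factor gene grt1 and its neighbour fah1, an amidase gene, were both dim. Signal for grt1 was 2528 and 1868 on the arrays labelled Δpka1, 5407 and 5329 in Δcgs1, 2204 and 1637 in Δppt1, with 3900 and 5127 in wild type. Signal for fah1 was 1666 and 1532 on the arrays labelled Δpka1, 3389 and 3876 in Δcgs1, 1515 and 1266 in Δppt1, with 2352 and 3179 in wild type. For both genes Δcgs1 and wild type lay above the other strains, with 1 wild-type array of fah1 under the background limit. The falls on the arrays labelled Δpka1 were called (-1.04, SE 0.21, adjusted p = 0.0325 for grt1, and at least 1.10-fold, -0.78, SE 0.17, adjusted p = 0.0405 for fah1). With 1 array left out, these calls were lost in 2 of 4 fits for grt1 (-1.26 to -0.82) and 3 of 4 for fah1 (-0.99 to -0.56). In Δppt1 both genes lay at background, with values of -1.23 (at least 1.79-fold lower) and -0.98 (at least 1.10-fold lower). Neither was called (each with adjusted p = 0.068, or 0.0274 with the slide block). With signals under the background limit raised to it, the fall of fah1 shrank to -0.17 (adjusted p = 0.549). The control of random sequence stood lower than in wild type on the arrays labelled Δpka1 and in Δppt1, more so on slide 2. Its difference was -0.08 on slide 1 and -0.41 on slide 2 on the arrays labelled Δpka1, 0.09 and -0.15 in Δcgs1 and -0.09 and -0.39 in Δppt1, on the log2 scale. Its part in the falls of dim genes, those of SPBPB2B2 and of tlh2 included, was not tested. SPBPB8B6.02c and SPBPB8B6.05c were not called, although SPBPB8B6.05c was called lower on the arrays labelled Δpka1 with slide as a block (-0.67, adjusted p = 0.000595).

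At the tip of the left end, SPBC1348 holds ftm5, 3 genes from the end, one of a family of genes for proteins with several membrane spans. Signal for ftm5 was 8950 and 8345 on the arrays labelled Δpka1, 31311 and 35542 in Δcgs1, 15071 and 14484 in Δppt1, with 25698 and 29285 in wild type. The strains ranked without overlap, with Δcgs1 highest and the arrays labelled Δpka1 lowest. It fell on the arrays labelled Δpka1 (-1.67, SE 0.11, adjusted p = 0.000263) and in Δppt1 (-0.89, SE 0.11, adjusted p = 0.0189), the 1 gene of the 55 called lower in both in the fit without the block. With slide as a block 8 genes were called lower in both, among them grt1, fah1, SPBPB2B2.06c and SPBC1348.06c, the last at background in all strains. The call of ftm5 in Δppt1 was lost in each fit with 1 array left out. SPBC1348.01 read 22628 to 36513 with no call (-0.30 on the arrays labelled Δpka1, adjusted p = 0.302, or 0.0209 with the slide block), and SPBC1348.06c and SPBC1348.07 lay at background on all 8 arrays.

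Of the copies of the ftm family at other chromosome ends, ftm1 and ftm4 read like ftm5. On chromosome I, ftm1 read 6795 and 7472 on the arrays labelled Δpka1, 26643 and 36001 in Δcgs1, 10938 and 14631 in Δppt1, with 20788 and 26798 in wild type, and fell by 1.73 (SE 0.21, adjusted p = 0.00397). For ftm4, also on chromosome I, the fall was 1.71 (SE 0.19, adjusted p = 0.00261). The order of strains was the same for ftm1, ftm4 and ftm5. These genes are not independent evidence of each other, since copies of a family can bind the same probes, and cross-hybridisation was not tested. Signals of ftm7, 8 genes from the right end of chromosome II, and of ftm3 on chromosome I lay at background on all arrays and were not called against wild type.

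**Figure D3:**
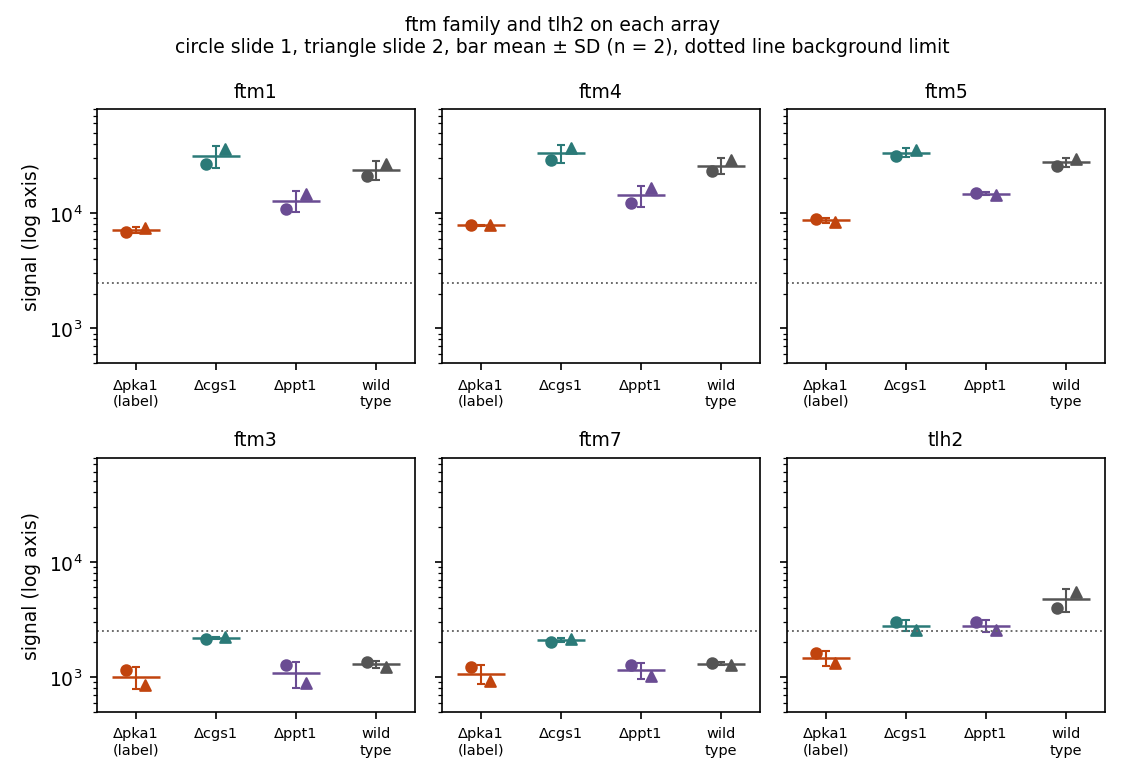
Signal on every array (y axis, linear intensity on a log axis) of 5 ftm genes and of tlh2, by strain from the arrays labelled Δpka1 at the left to wild type at the right, with circles for slide 1, triangles for slide 2, bars for the mean ± SD of 2 arrays and a dotted line at the background limit. For ftm5 the arrays labelled Δpka1 read 8950 and 8345 and those of Δcgs1 31311 and 35542, and ftm1 and ftm4 show the same order of strains, while ftm3 and ftm7 lie at background throughout.

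The outermost gene, tlh2, next to the right end, encodes a helicase of the RecQ type. It read 1621 and 1320 on the arrays labelled Δpka1, 3015 and 2578 in Δcgs1, 3034 and 2556 in Δppt1, with 3995 and 5478 in wild type. Wild type was highest and the arrays labelled Δpka1 were at background, at least 1.87-fold lower (-1.68, SE 0.19, adjusted p = 0.00289). The values in Δcgs1 and Δppt1 were both -0.75 and not called (adjusted p = 0.806 and 0.203). The tlh genes also have near-identical copies at other ends, so which copy gave the signal cannot be told apart.

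The innermost left cosmid, SPBC1683, had 1 gene of 11 called against wild type in any strain, urh1, a uridine ribohydrolase gene. It read 5466 and 5645 on the arrays labelled Δpka1, 10973 and 13136 in Δcgs1, 10868 and 10951 in Δppt1, with 7781 and 9430 in wild type. The arrays labelled Δpka1 lay below all others (-0.62 against wild type, SE 0.13, adjusted p = 0.0341). That call was lost in 3 of 4 fits with 1 array left out, with log2 fold changes from -0.76 to -0.49. Those arrays lay below Δcgs1 by 1.11 (SE 0.13, adjusted p = 0.00304), a call kept with any 1 array left out. The phosphate transporter gene pho841 (52270 to 62384), the vacuolar iron transporter gene pcl1 (40781 to 60136), the transporter genes amf1 and thi7, the maltase gene mal1, icl1 and the transcription factor gene cha4 were not called. Nor were SPBC1683.02, SPBC1683.04 and SPBC1683.12. With slide as a block, amf1, SPBC1683.02 and SPBC1683.12 of these 10 were called lower and mal1 higher on the arrays labelled Δpka1, and SPBC1683.02, SPBC1683.04 and SPBC1683.12 higher and pcl1 lower in Δppt1, each by 0.22 to 0.48 on the log2 scale.

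By role, the 35 genes with a symbol divided unevenly. The role groups were set from general knowledge with results known and carry no test, and over all genes 8.46% were called on the arrays labelled Δpka1, 1.01% in Δppt1 and 0.142% in Δcgs1. Of 7 transporter genes, nrg1 and aat1 fell on the arrays labelled Δpka1, and nrg1 and abc3 rose in Δppt1. Of 11 enzyme genes, cmt2 and cao2 rose and fah1, urh1 and pan5 fell on the arrays labelled Δpka1, and alr2 rose in Δppt1. Of 3 transcription factor genes, grt1 fell on the arrays labelled Δpka1, and of 5 genes of RNA synthesis and processing ppr8 and rpc40 did. Among 4 genes of subtelomeric families and silencing, ftm5, tlh2 and aes1 fell on the arrays labelled Δpka1, and ftm5 fell in Δppt1. The 5 genes of other cell functions had no call against wild type. Of the 20 genes without a symbol, 2 rose and 4 fell on the arrays labelled Δpka1, 3 rose in Δppt1 and 1 rose in Δcgs1.

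Differences between strains are given by position as a description, with no test. The range of the 4 strain means had a median of 1.30 on the log2 scale over the 26 genes within the first 30 from an end, 0.41 over the 29 genes farther in and 0.26 over all genes of the arrays. The division at 30 genes was chosen after values were seen. Of the outer 26 genes, 14 differed 2-fold or more between strain means, and of the inner 29, 4 did. On the arrays labelled Δpka1, 14 of the outer genes were called (3 higher, 11 lower) and 5 of the inner ones, beside 8.46% of all genes. In Δppt1 the counts were 5 and 2, beside 1.01% of all genes. With slide as a block, the arrays labelled Δpka1 gave 19 outer and 12 inner calls. These were 73.1% and 41.4% of the genes, beside 38.6% of all genes. In Δppt1 the block gave 13 and 8 (50.0% and 27.6%, beside 12.9%). Across genes, the range fell with distance from the end (Spearman's rho = -0.56 over 55 genes, -0.42 over the 30 of the left end and -0.69 over the 25 of the right end), given as a description since neighbours and families are not independent. Signal level moved with position as well: 14 of the outer genes and 1 of the inner ones lay at or below the background limit on some array. The median difference between replicates was 0.26 on the log2 scale in the outer genes and 0.23 in the inner ones. The part of signal level in the wider range was not tested. The 11 left-out genes are not in these outer and inner counts and medians or in the correlations. Of those beyond 30 genes, mug14, ght4 and frp1 had ranges of 4.55, 2.47 and 1.96, and pfl5 and pfl7 of 0.22 and 0.20. Ranges of the outer left-out genes ran from 0.87 (tgd1) to 4.97 (eno102).

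Of 53 pairs of adjacent genes in these cosmids, the 11 left-out genes included, 7 were called in the same direction on the arrays labelled Δpka1 (13.2%) and 2 in opposite directions (3.77%). Over all 4734 pairs of adjacent genes on the arrays, 0.739% and 0.444% were. Of the 40 pairs within the 55 genes, the counts were 3 and 1 (7.5% and 2.5%). These shares are a description, since a set with more calls holds more such pairs. Those pairs were grt1 with fah1, ppr8 with rpc40, and SPBPB2B2.05 with SPBPB2B2.06c, each lower, and SPBPB10D8.01 with SPBPB10D8.02c in opposite directions. The other pairs hold left-out genes: ght4 with frp1 and the 3 pairs between gal7, tgd1, gal10 and gal1, each higher, and pan5, lower, with gal7, higher. The 9 left-out genes that rose on the arrays labelled Δpka1 were these 6 with eno102, mug14 and ght7, by 0.74 to 4.83 on the log2 scale, while pfl5 and pfl7 were not called. In Δppt1 and Δcgs1 no pair of neighbours was called together in the fit without the block. With it, 2 pairs of the 53 were called in the same direction in Δppt1, grt1 with fah1, lower, and SPBPB10D8.01 with SPBPB10D8.02c, higher, and 2 in opposite directions, beside 1.52% and 0.655% of all pairs. In all, 22 of the 55 genes were called in at least 1 comparison with wild type, and 33 in none.

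The arrays labelled Δpka1 were also set against Δcgs1, which share ura4 and differ in which PKA subunit was targeted. Of the 55 genes, 20 were called, 3 higher and 17 lower, beside 10.3% of all genes (4.37% higher and 5.97% lower), and the median was -0.38 beside -0.07. The rises were SPBC1289.14, cmt2 (1.41, SE 0.14, adjusted p = 0.00163) and cao2 (0.72, SE 0.11, adjusted p = 0.00819). The largest falls were SPBPB2B2.18, aes1 (-2.84, SE 0.11, adjusted p = 2.69e-05), nrg1 (at least 4.51-fold, -2.66, SE 0.14, adjusted p = 8.45e-05) and SPBPB10D8.01 (-2.54, SE 0.21, adjusted p = 0.000571). The falls of ftm5 (-1.95, adjusted p = 0.000129), SPBPB2B2.05 (at least 1.80-fold), SPBPB2B2.06c (at least 1.32-fold), grt1 (-1.30), fah1 (at least 1.45-fold) and urh1 followed. Signals of ftm7, called at -0.98, lay at background in both strains, so this call gives no fold. The other falls were those of tlh2 (at least 1.12-fold) and of aat1, pan5, ppr8, SPBC1683.12 and rpc40, the last 5 between -0.98 and -0.41. The excess of falls rests in part on the choice of genes: of the 11 left out, 8 were higher and 0 lower. With them restored, 11 of 66 genes were higher and 17 lower, with a median of -0.22. With slide as a block 34 of the 55 were called (3 higher and 31 lower, beside 41.3% of all genes, 12.5% higher and 28.8% lower), and 10 of the 20 calls held with any 1 array left out.

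Against Δppt1, the arrays labelled Δpka1 differed in 21 of the 55 genes, 4 higher and 17 lower, beside 9.6% of all genes (5.04% higher and 4.55% lower). With slide as a block 31 were called, 6 higher and 25 lower, beside 38.5% of all genes (16.1% higher and 22.4% lower), and 12 of the 21 calls held with any 1 array left out. With the 11 left-out genes restored, 11 of 66 genes were higher and 18 lower in the fit without the block. Of these 2 strains only the one labelled Δpka1 carries ura4, and this cannot be told apart from the disruptions. This comparison was added after the comparisons with wild type were seen. The genes named from it for moving apart were picked on the same arrays, so their differences are given as sizes, with no p. SPBPB10D8.01 was 10.4-fold lower (-3.38, SE 0.21), alr2 8.13-fold lower (-3.02, SE 0.19), and SPBPB2B2.08 at least 4.51-fold lower (-3.12, SE 0.16). SPBPB10D8.02c, higher than wild type in both, was 2.67-fold lower on the arrays labelled Δpka1 than in Δppt1 (-1.42, SE 0.12). Besides these, nrg1 and SPBPB2B2.05, the genes called lower were aes1 (-2.43), SPBPB2B2.06c, aat1, urh1, ftm5, tlh2, abc3, amf1, ppr8, SPBC1683.02 and SPBC1683.12. Of them, SPBPB2B2.06c and tlh2 lay at background on the arrays labelled Δpka1. The genes called higher were SPBC1289.14 (3.89), at background in Δppt1, cao2 (1.22), cmt2 (1.12) and pcl1. The iron transporter gene pcl1 was 1.35-fold higher on the arrays labelled Δpka1 (0.44, SE 0.10, adjusted p = 0.0382). All 4 fits with 1 array left out lost the call of pcl1, with log2 fold changes from 0.34 to 0.53. Its signal on the slide 2 array labelled Δpka1, 60136, lay within 10% of the top of the scale.

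Cosmids at the ends of chromosome I and genes farther in on chromosome II give a scale for these counts. On the arrays labelled Δpka1, 40 of 97 genes of the chromosome I cosmids were called (41.2%), beside 34.5% of the 55 genes and 42.4% of all 66 genes of the same cosmids. Of the 60 genes next inward on chromosome II, 7 were called (11.7%). In Δppt1 the shares were 12.7% for the 55 genes, 4.12% for the chromosome I cosmids and 1.67% for the genes farther in. In Δcgs1 they were 1.82%, 3.09% and 0.0%, which rest on 1, 3 and 0 genes. With slide as a block the shares lay closer to that of all genes. On the arrays labelled Δpka1 they were 56.4% for the 55 genes, 71.1% for the chromosome I cosmids and 45.0% for the genes farther in, beside 38.6%. In Δppt1 they were 38.2%, 25.8% and 18.3%, beside 12.9%, and in Δcgs1 3.64%, 5.15% and 0.0%, beside 0.83%. The differences between these groups of genes were not tested.

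**Figure D4:**
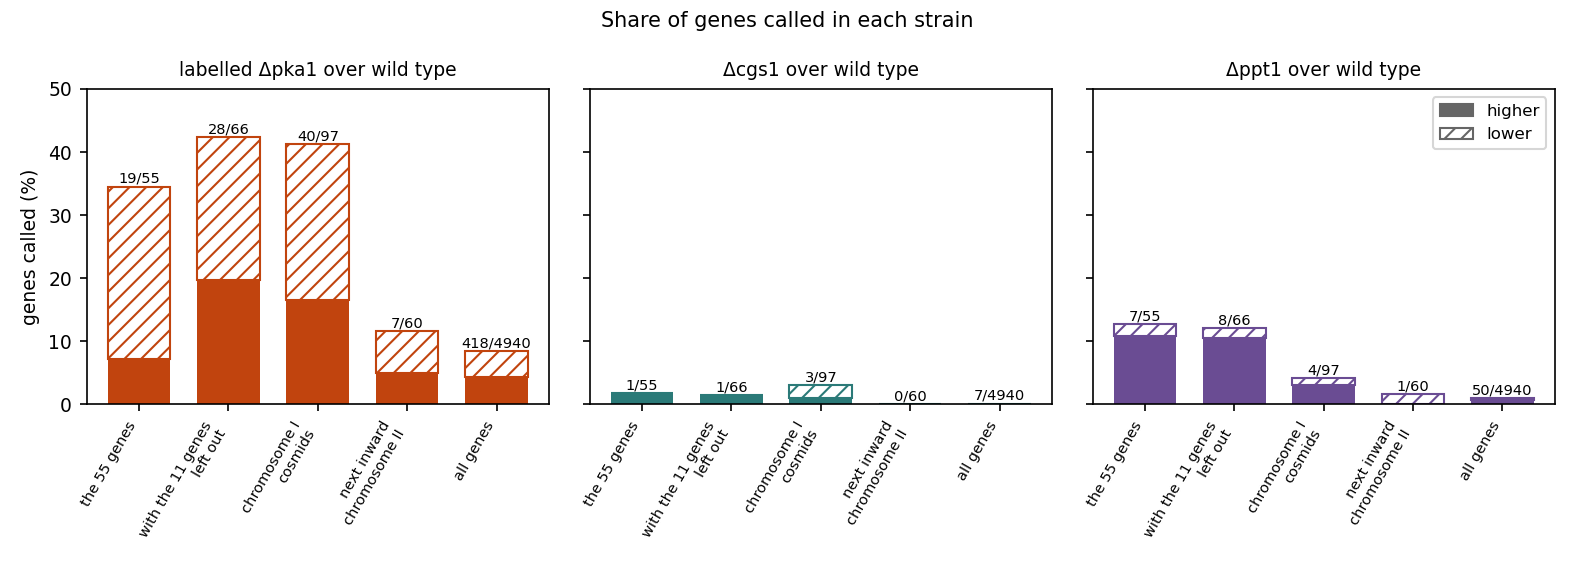
Share of genes called (percent, y axis from 0) for the 55 genes, all 66 genes of the same cosmids, the chromosome I cosmids, the genes next inward on chromosome II and all genes of the arrays, for the arrays labelled Δpka1, Δcgs1 and Δppt1 over wild type, with solid bars for higher, hatched bars for lower and the number called of the number tested above each bar. All bars come from the fit without the block. On the arrays labelled Δpka1 the shares were 34.5%, 42.4%, 41.2%, 11.7% and 8.46%.

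Genes known for chromatin silencing and telomere protection were read from a list of 35, all of them measured. On the arrays labelled Δpka1, 1 of the 35 was called, chp1, a chromodomain protein gene of the RNA-directed silencing complex, which fell (-0.60, SE 0.14, adjusted p = 0.0493), beside 8.46% of all genes. It also lay lower than in Δcgs1 (-0.79, SE 0.14, adjusted p = 0.0172). With 1 array left out, 3 of 4 fits lost the first call and 4 of 4 the second. By limma, 0 of the list were called in Δcgs1 or Δppt1, where 0 and 2 had an unadjusted p below 0.05. With slide as a block, 7 of the 35 were called on the arrays labelled Δpka1 (2 higher and 5 lower, 20.0% beside 38.6% of all genes), 0 in Δcgs1 (beside 0.83%) and 1, lower, in Δppt1 (2.86% beside 12.9%).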

How the data were processed

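Values are gene-level intensity on a linear scale from Cy3-labelled NimbleGen arrays, 1 summary of the probes of a gene per array, as the authors deposited them. Per the file headers the tables also give the number of probes. Probe summary and array normalization are steps that the labels and headers used here do not record. The deposited series table equals the per-array tables (largest difference 0.0). Depth does not apply to arrays, and their number limits the precision.

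From these values, limma 3.58.1 in R 4.3.3 fitted 1 mean per strain to log2 values of all 8 arrays, with two-sided moderated tests. Benjamini-Hochberg adjustment ran over 4940 genes per comparison, and genes were called at an adjusted p below 0.05. Same-slide arrays deviated together in each of 6 strain pairs (r between 0.351 and 0.690, Pearson, across genes), so counts with slide as a block are given for each comparison, and the genes it added against wild type are named. Log2 fold changes had a median SE of 0.143, or 0.0589 with the block. Separate cultures gave the 2 arrays of a strain.

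Where both arrays of a strain lay at or below the background limit of 2497, a limit chosen after seeing the data, folds are given as "at least", from that limit. Symbols (35 of the 55 genes) and gene order came from the RefSeq table of assembly ASM294v3. No positions are printed, as no build is named in the files. Sequences were not used here. Genes, lists and role groups were chosen with earlier results of these data known. The naming rule took every called gene of a comparison (up to 15 rises and 15 falls), the brightest, dimmest and widest-ranging gene of each cosmid, genes called only with the block, and the targeted genes. Grouping by product text could not be done, as the table has none, so role groups came from general knowledge. Alternatives were centred or quantile-normalized arrays, a mean-variance trend with a robust prior, leaving out the dimmest genes or 1 array, a signal floor at the background limit, and restoring the left-out genes, the last pair added after seeing the data, as were all alternatives for the arrays labelled Δpka1 over Δppt1 and for named genes outside the 55.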

Additional observations from a re-analysis of the deposited data

How the results depend on the processing

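No call reversed, over the called genes of the 55 in the 5 comparisons and over ftm1, ftm4, chp1 and the 9 called left-out genes. The numbers of the 55 genes called depended on how the slide difference was treated. Against wild type, the arrays labelled Δpka1 had 19 calls, 31 with slide as a block, 30 after quantile normalization and 9 to 19 with 1 array left out. Δcgs1 had 1 call, 2 with slide as a block, 3 with arrays centred on their medians, 8 after quantile normalization, 4 with a trend and robust prior, 0 without the dimmest 10% of genes (41 of the 55 tested) and 0 in each fit with 1 array left out. Δppt1 had 7 calls, 21 with slide as a block, 16 after centring, 25 after quantile normalization, 16 with a trend and robust prior and 3 to 4 with 1 array left out. Between the arrays labelled Δpka1 and Δcgs1 there were 20 calls, 34 with slide as a block, 34 after quantile normalization, 11 without the dimmest genes and 10 to 14 with 1 array left out. Against Δppt1 the arrays labelled Δpka1 had 21 calls, 32 after quantile normalization and 12 to 16 with 1 array left out. The median log2 fold change ranged with 1 array left out from -0.37 to -0.03 on the arrays labelled Δpka1, from -0.02 to 0.20 in Δcgs1, from -0.17 to 0.11 in Δppt1, from -0.42 to -0.30 between the arrays labelled Δpka1 and Δcgs1 and from -0.26 to -0.11 between the arrays labelled Δpka1 and Δppt1. A strain then stands on 1 slide alone, so the slide difference enters. Without the dimmest genes the median in Δppt1 was 0.07. Between the arrays labelled Δpka1 and Δcgs1 it was -0.34 after centring, -0.29 after quantile normalization, -0.30 without the dimmest genes and -0.23 with a signal floor. Between the arrays labelled Δpka1 and Δppt1 it was -0.21 without the dimmest genes and -0.07 with the floor. The cause of the other shifts was not tested.

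With the signal floor, the calls of ppr8 (adjusted p = 0.0585), pan5 and chp1 (adjusted p = 0.0665) on the arrays labelled Δpka1 against wild type and of abc3 in Δppt1 (adjusted p = 0.0933) were lost with their log2 fold changes unchanged, as were those of SPBC1683.12 and pan5 against Δcgs1. The fold change itself shrank where a strain lay at background: for fah1 on the arrays labelled Δpka1 against wild type and, against Δcgs1, for fah1, SPBPB2B2.06c, ftm7 and tlh2 (-0.16). Against Δppt1 the calls of SPBPB2B2.06c (-0.32) and tlh2 (-0.16) were lost. Without the dimmest genes, the calls of chp1 (adjusted p = 0.0529) on the arrays labelled Δpka1 and of abc3 (adjusted p = 0.0501) in Δppt1 against wild type were lost, as were those of SPBC1683.12 and pan5 against Δcgs1 (each with adjusted p = 0.0516). With a trend and robust prior that of rpc40 against Δcgs1 was lost (adjusted p = 0.0802). Folds of genes at background or near the top of the scale are bounds or are compressed.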
